A study of Mus musculus with 8 samples.

Results

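The peroxisome proliferator-activated receptors (PPARs), their PGC-1 coactivators and a small set of their target genes were followed in primary osteoblasts, which form bone and here came from the calvaria, the roof of the skull. The members were chosen by name: Ppara, Ppard, Pparg, Rxra, Ppargc1a, Ppargc1b, Esrra, Pdk4, Angptl4 and Ucp2, with all probes that the array's annotation gives to them. That annotation named 11 probes for 9 of the 10 genes, out of 25697 probes and 16593 named genes on the array. It named none for Ucp2, a carrier of the inner mitochondrial membrane, so the signal of this gene was not analysed here. The osteoblasts were of C57Bl/6 background, and 4 arrays were labelled Lrp5-/- and 4 were labelled Lrp5+/+. Lrp5 encodes a Wnt coreceptor of the LDL receptor family, and by its title the study concerned osteoblast fatty acid metabolism. Both groups spent 7 days in differentiation medium (ascorbic acid at 50 ug/ml, beta-glycerol phosphate at 10 mM), and an adenovirus carrying either Cre recombinase or green fluorescent protein was added 48 hours before differentiation began. The virus given to each group, any conditional allele and the age of the animals are not in the labels. Nothing there tells whether the 4 arrays of a group are separate animals, so the p-values reflect array-to-array spread, possibly technical.

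PPARs are nuclear receptors that fatty acids and their derivatives bind and activate. They bind DNA as a pair with a retinoid X receptor such as RXR alpha, and the PGC-1 proteins are coactivators that are recruited to PPARs and to the estrogen-related receptors and that raise the transcription of genes of fatty acid oxidation and of mitochondria. In the skeleton, PPAR gamma is best known for driving marrow stromal cells toward fat cells and away from osteoblasts.

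Only 2 of the 9 genes gave a signal that the arrays measured reliably, the estrogen-related receptor gene Esrra and the PPAR target Angptl4. Both stood lower in the knockout-labelled arrays, by 0.25 and 0.32 log2, and neither passed the test across all probes. The receptors Ppara, Ppard, Pparg and Rxra and both PGC-1 genes were not detected on any of the 8 arrays. Pdk4, a target gene of both PPARs and estrogen-related receptors, was detected on no knockout-labelled array and on 2 control arrays. In total RNA from a culture, fewer cells of a type and less RNA per cell cannot be told apart.

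A probe counted as detected on an array where its detection p, the chance of such a signal on a negative control bead, was under 0.01. Between 9685 and 10363 probes were detected per array (37.7% to 40.3%), and the 10004 probes detected on at least 4 arrays were tested with limma after background correction and quantile normalization on the log2 scale. Of these, 713 (7.13%) passed a Benjamini-Hochberg adjusted p of 0.05, and 4.01% passed it toward lower values in the knockout-labelled arrays. Of the 11 member probes, 2 were tested and 0 passed, while both had an unadjusted p under 0.05 with lower values in the knockout-labelled arrays, as 12.4% of all tested probes did (24.6% in either direction). The single Lrp5 probe was detected on 2 knockout-labelled arrays and 1 control array, with 5.63, 5.66, 6.07 and 6.10 log2 in the knockout-labelled arrays and 5.43, 5.70, 5.48 and 5.53 log2 in the control arrays. Where the probe lies relative to a deleted part of the gene is unknown, so the labels are unchecked and each direction below rests on them. Of the 8 osteoblast markers with a probe, 6 passed the detection filter (Col1a1, Col1a2, Alpl, Ibsp, Sp7 and Pth1r), while Bglap and Dmp1, which mark mature osteoblasts and osteocytes, were not detected on any array.

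**Figure D1:**
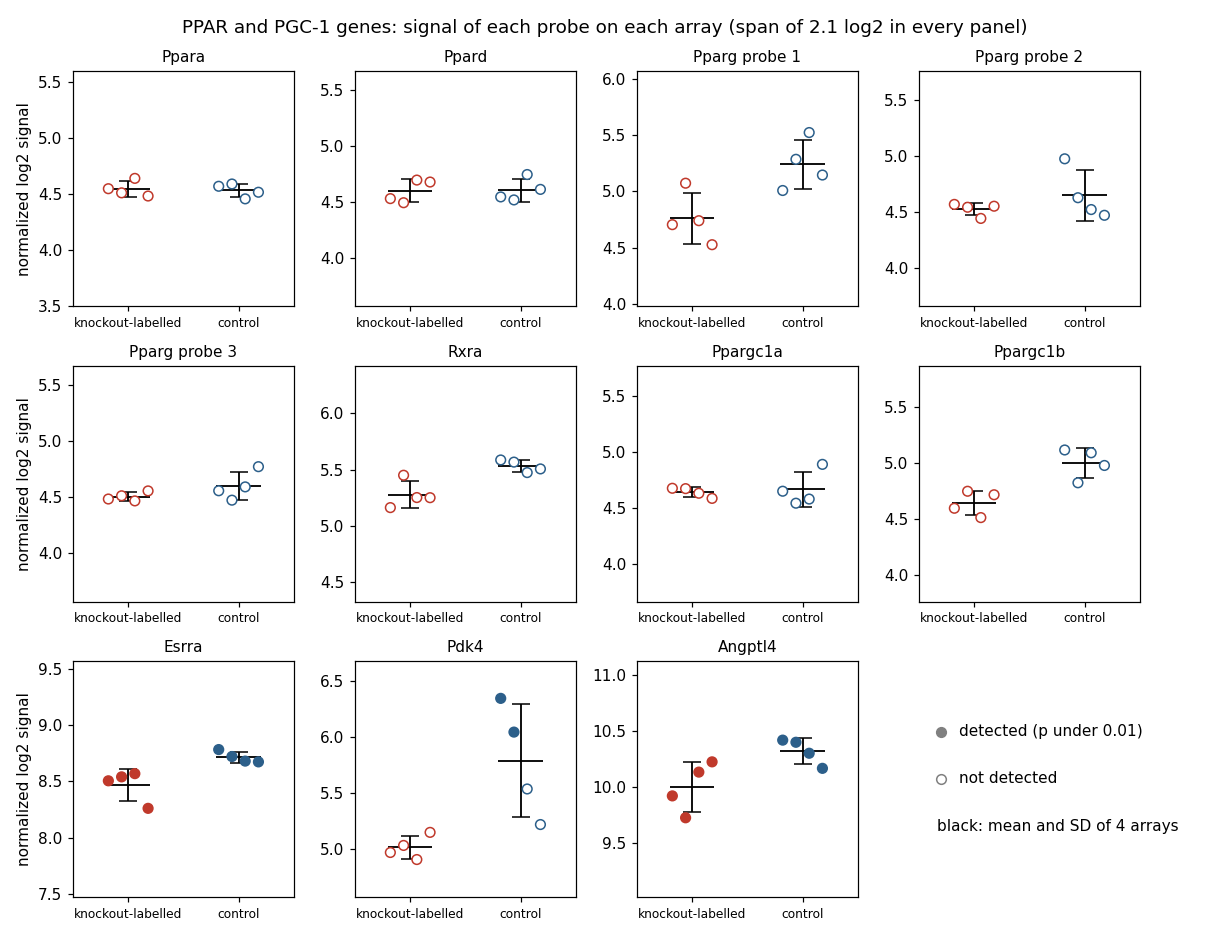
Normalized log2 signal (vertical axis) of each of the 11 member probes on the 4 knockout-labelled arrays (red, left) and the 4 control arrays (blue, right); filled points were detected and black lines give the mean and SD. Esrra and Angptl4 have filled points on all arrays and Pdk4 on 2 control arrays, and the other probes have none.

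Esrra encodes estrogen-related receptor alpha, an orphan nuclear receptor through which PGC-1 proteins act on mitochondrial genes. Its probe (ILMN_2972292) had raw intensities of 405, 469, 446 and 463 in the knockout-labelled arrays, against 538, 602, 507 and 551 in the control arrays. After normalization these were 8.51, 8.54, 8.57 and 8.26 log2 in the knockout-labelled arrays, against 8.78, 8.72, 8.68 and 8.67 log2 in the control arrays. Every knockout-labelled array lay below every control array on both scales, and the fourth knockout-labelled array lay apart from the others on the normalized scale. The mean was 8.47 ± 0.14 log2 in the knockout-labelled arrays and 8.72 ± 0.05 log2 in the control arrays (SD, n = 4 each). The difference was -0.25 log2 (SE 0.08, 95% confidence interval -0.42 to -0.07), a signal 1.19 times as high in the control arrays. It did not pass in limma (adjusted p = 0.0866), and an exact two-sided permutation test gave p = 0.0286, the smallest that the 70 assignments of 8 arrays to groups of 4 allow. Of all tested probes, 8.25% were also lower in the knockout-labelled arrays with no overlap between the groups.

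The call for Esrra depended on the processing. It passed with no background correction (adjusted p = 0.0352), with the authors' deposited log2 table (0.0384) and with a trended and robust variance prior (0.0373), where the change was -0.19, -0.18 and -0.25 log2. Over the other alternatives its limma adjusted p lay above the threshold, up to 0.176 without control array 1. Leaving out 1 array at a time gave changes between -0.28 and -0.18 log2. The smallest of these changes (-0.18 log2, limma adjusted p = 0.135) came without knockout-labelled array 4, the lowest.

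The bases before the annotated start of Esrra are shown because it is the receptor gene of the set that the arrays measured. They were searched on both strands for AGGTCA, the half-site to which PPARs, RXR and estrogen-related receptors bind, and it does not occur in them. The sequence comes from RefSeq (GRCm38.p6) and covers the 250 bases upstream of the start, chr19:6921809-6922058 on the minus strand.
Esrra: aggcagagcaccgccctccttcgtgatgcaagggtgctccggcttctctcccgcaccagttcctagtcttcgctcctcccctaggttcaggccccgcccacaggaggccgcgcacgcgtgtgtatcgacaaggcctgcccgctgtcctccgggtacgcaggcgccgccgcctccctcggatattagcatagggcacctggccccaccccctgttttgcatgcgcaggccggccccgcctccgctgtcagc

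Angptl4 encodes a secreted protein that inhibits lipoprotein lipase and is a widely used PPAR target gene. Its probe (ILMN_2759365) had raw intensities of 918, 935, 1126 and 1444 in the knockout-labelled arrays, against 1426, 1632, 1337 and 1334 in the control arrays. The normalized values were 9.92, 9.72, 10.13 and 10.22 log2 in the knockout-labelled arrays, against 10.42, 10.40, 10.30 and 10.16 log2 in the control arrays. The groups overlapped, since the fourth knockout-labelled array lay above the fourth control array, and the other knockout-labelled arrays lay below all control arrays. The mean was 10.00 ± 0.22 log2 in the knockout-labelled arrays and 10.32 ± 0.11 log2 in the control arrays (SD, n = 4 each). The difference was -0.32 log2 (SE 0.11, 95% confidence interval -0.56 to -0.08), a signal 1.25 times as high in the control arrays. It did not pass in limma (adjusted p = 0.107), and the exact two-sided permutation p was 0.0571.

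As for Esrra, the call for Angptl4 depended on the processing. Its limma adjusted p was 0.0197 with no background correction, 0.0433 with normexp and an offset of 50, 0.0207 with the authors' deposited log2 table and 0.0258 with a trended and robust prior, at changes of -0.29, -0.31, -0.28 and -0.32 log2. Leaving out 1 array at a time gave changes between -0.39 and -0.23 log2 and adjusted p-values between 0.0661 and 0.218, none past the threshold. Leaving out knockout-labelled array 2, the lowest, gave the smallest of these changes.

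**Figure D2:**
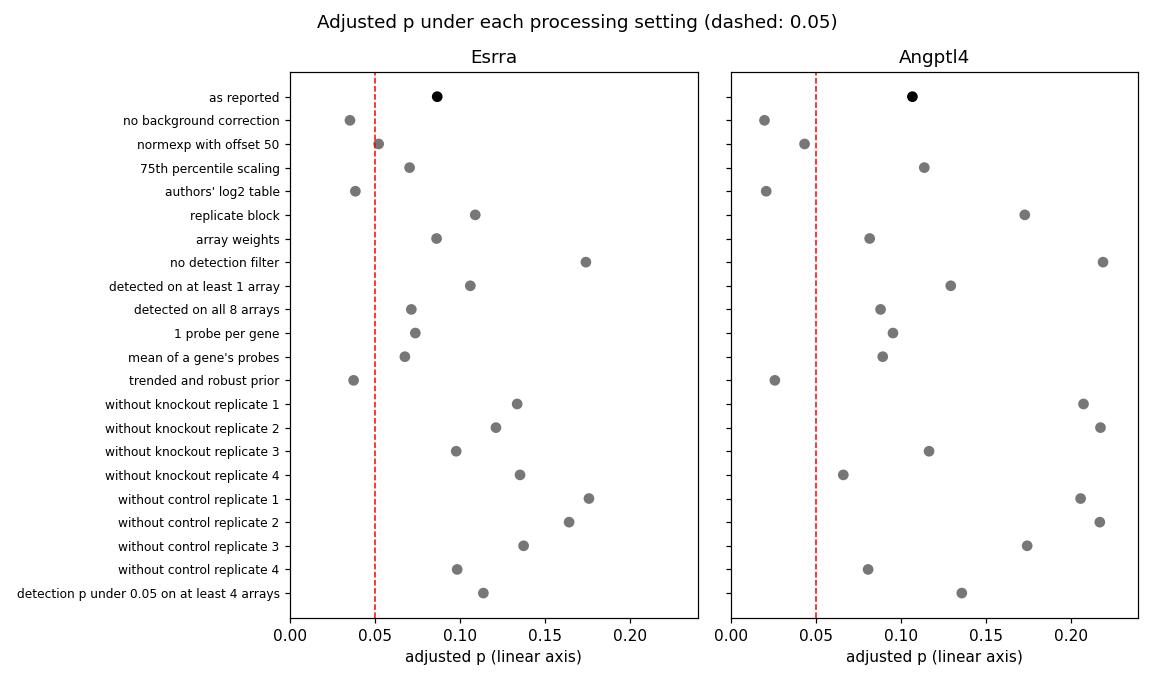
Adjusted p (horizontal axis, linear) of Esrra and Angptl4 under each processing setting, one point per setting, with the threshold of 0.05 dashed and the reported value in black. Esrra lies left of the line under 3 settings and Angptl4 under 4, and both lie right of it whichever array is left out.

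Pdk4 encodes a kinase that switches off the pyruvate dehydrogenase complex and so spares glucose when fatty acids are burned. Its probe (ILMN_1259322) had detection p-values of 0.105, 0.0877, 0.135 and 0.0564 in the knockout-labelled arrays, against 0.0013, 0.0013, 0.0163 and 0.0464 in the control arrays. The normalized signals were 4.97, 5.03, 4.91 and 5.15 log2 in the knockout-labelled arrays, against 6.34, 6.04, 5.54 and 5.22 log2 in the control arrays. The groups did not overlap, but the control arrays spanned a wide range, and the lowest of them was close to the highest knockout-labelled array. The mean was 5.02 ± 0.10 log2 in the knockout-labelled arrays and 5.79 ± 0.50 log2 in the control arrays (SD, n = 4 each). With the knockout-labelled arrays held at the lowest signal that counted as detected there, the control mean was 1.01-fold higher. Only 2 of 4 control arrays were detected. The others entered that mean at their measured signals, so this ratio does not bound the change. Pdk4 was outside the tested set, and in limma over all 25697 probes it did not pass (difference -0.77 log2, SE 0.21, adjusted p = 0.117, and an exact permutation p of 0.0286). With a probe required to be detected on at least 1 array its limma adjusted p was 0.0642, also short of the threshold. Without background correction the same difference was -0.25 log2, so its size depends on how background is removed.

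Among the receptors, Rxra came nearest to detection. It encodes RXR alpha, the partner with which PPARs bind DNA, and its probe (ILMN_2741479) had detection p-values of 0.0576, 0.0188, 0.0539 and 0.0414 in the knockout-labelled arrays, against 0.015, 0.0113, 0.0213 and 0.0188 in the control arrays. The normalized signals were 5.16, 5.45, 5.25 and 5.25 log2 in the knockout-labelled arrays, against 5.59, 5.57, 5.47 and 5.51 log2 in the control arrays. The knockout-labelled arrays lay below all control arrays, the second of them by a narrow margin. As both groups were below the detection limit, the difference of -0.26 log2 (SE 0.07) is one between signals near background, and it did not pass over all probes (adjusted p = 0.128 in limma, with an exact permutation p of 0.0286). Its difference was -0.08 log2 with no background correction or in the authors' deposited log2 table, and -0.12 log2 with normexp and an offset of 50. With the filter set to a detection p under 0.05 for 4 arrays or more, an alternative chosen after the data were seen, Rxra entered the tested set and did not pass either (limma adjusted p = 0.0874, where 4.47% of the 11752 probes tested passed).

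Pparg, the receptor that drives fat cell formation, had 3 probes, and none was detected on any array. The brightest (ILMN_1221060, probe 1 in the plots) stood at 4.70, 5.07, 4.74 and 4.53 log2 in the knockout-labelled arrays, against 5.01, 5.29, 5.53 and 5.15 log2 in the control arrays. The groups overlapped at 1 knockout-labelled array, the second, which lay above the first control array. The smallest detection p of this probe was 0.0802 in the knockout-labelled arrays and 0.0163 in the control arrays. The difference was -0.48 log2 (SE 0.13) for this probe, -0.12 log2 (SE 0.10) for ILMN_1221594 (probe 2) and -0.09 log2 (SE 0.07) for ILMN_1221893 (probe 3). None of the 3 passed over all probes (limma adjusted p = 0.128, 0.689 and 0.635), and the difference was smaller for the fainter pair. With no background correction the difference of the brightest probe was -0.18 log2.

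There were 11 upstream windows from RefSeq for 8 of the members, Ucp2 among them, and none for Angptl4 or Ppargc1b. Of these windows, 3 held the half-site AGGTCA on either strand, against 14.0% of the 32851 windows of all genes. They belong to Rxra and Pparg and are shown for that reason, with the half-site, or TGACCT where it is on the opposite strand, in capitals. The first of the Rxra half-sites is on the opposite strand and lies 87 to 82 bases before the start and the other 48 to 43 bases before it, where it is part of AAGGTCA, a longer form that 4.08% of all windows held. In the Pparg windows it lies 28 to 23 bases and 9 to 4 bases before the start. The PPAR response element, read as the half-site repeated after 1 base of any kind, was in none of the members' windows and in 11 of all windows (0.0335%), and TCAAGGTCA was in none of the members' and 0.387% of all. A match is a run of letters and not a measured binding site. Both of these exact longer forms are rare over all windows, so their absence from 11 windows of 250 bases says little about binding. All 3 sequences are from the plus strand of GRCm38.p6, 250 bases each: Rxra chr2:27709042-27709291, Pparg chr6:115360894-115361143 and Pparg chr6:115362099-115362348.
Rxra, second annotated start: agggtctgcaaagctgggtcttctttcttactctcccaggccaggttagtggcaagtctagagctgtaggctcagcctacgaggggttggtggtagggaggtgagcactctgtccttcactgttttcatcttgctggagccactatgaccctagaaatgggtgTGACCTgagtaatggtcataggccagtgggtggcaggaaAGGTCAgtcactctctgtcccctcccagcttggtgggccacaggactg
Pparg, first annotated start: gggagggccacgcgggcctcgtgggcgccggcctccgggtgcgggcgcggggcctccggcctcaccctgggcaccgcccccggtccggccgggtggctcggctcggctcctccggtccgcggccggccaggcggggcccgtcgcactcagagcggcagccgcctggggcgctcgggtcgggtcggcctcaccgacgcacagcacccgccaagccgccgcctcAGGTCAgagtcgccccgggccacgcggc
Pparg, second annotated start: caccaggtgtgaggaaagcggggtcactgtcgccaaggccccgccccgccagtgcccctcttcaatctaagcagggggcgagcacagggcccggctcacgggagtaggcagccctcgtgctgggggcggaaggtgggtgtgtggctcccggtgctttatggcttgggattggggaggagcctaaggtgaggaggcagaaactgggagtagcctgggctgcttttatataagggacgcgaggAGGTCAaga

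Ppara, the PPAR of liver and muscle fatty acid oxidation, and Ppard, the most widely expressed of the 3 receptors, were at background. The Ppara probe lay between 4.48 and 4.64 log2 in the knockout-labelled arrays and between 4.46 and 4.59 log2 in the control arrays, with no detection p below 0.388. The Ppard probe lay between 4.50 and 4.70 log2 in the knockout-labelled arrays and between 4.52 and 4.75 log2 in the control arrays, with no detection p below 0.243. Both pairs of ranges overlapped almost fully. The differences were 0.01 log2 (95% confidence interval -0.12 to 0.15) for Ppara and -0.01 log2 (-0.17 to 0.16) for Ppard, which are differences of background and do not bound the change of either transcript.

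The PGC-1 coactivator genes were at background as well. Ppargc1a, which cold and exercise induce in fat and muscle, lay between 4.59 and 4.68 log2 in the knockout-labelled arrays and between 4.55 and 4.89 log2 in the control arrays, with overlapping groups and a difference of -0.02 log2 (SE 0.08). Ppargc1b, its close relative, stood at 4.60, 4.75, 4.52 and 4.72 log2 in the knockout-labelled arrays, against 5.12, 4.83, 5.09 and 4.98 log2 in the control arrays. Its groups did not overlap, and the smallest detection p was 0.254 in the knockout-labelled arrays and 0.0677 in the control arrays. The difference between these background-level signals was -0.36 log2 (SE 0.08) and did not pass over all probes (adjusted p = 0.0737 in limma, with an exact permutation p of 0.0286). With scaling to the 75th percentile in place of quantile normalization its groups overlapped and the difference was -0.28 log2, and with no background correction it was -0.15 log2.

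**Figure D3:**
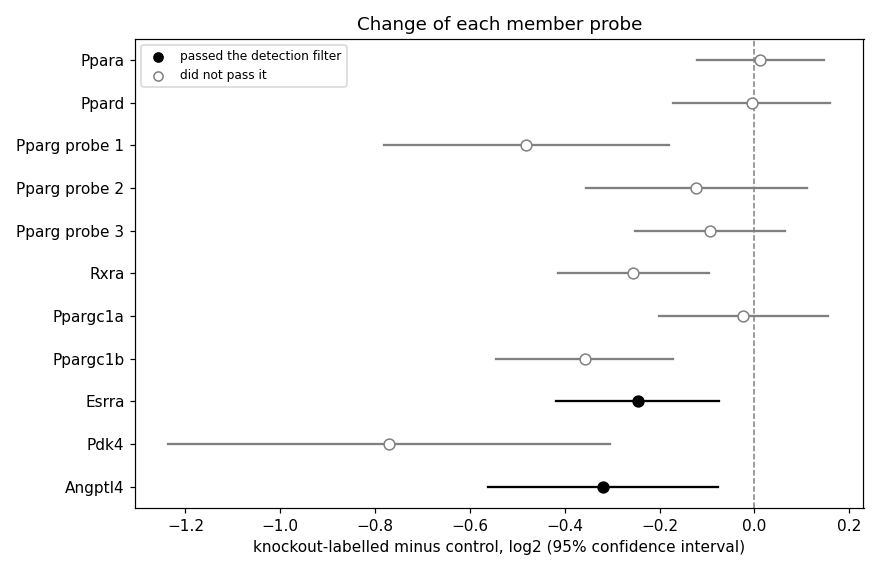
Difference in log2 signal, knockout-labelled minus control (horizontal axis), of each member probe with its 95% confidence interval; filled points passed the detection filter and open points did not, and open points take their interval from the fit over all probes. Points lie at or below 0 except that of Ppara at 0.01, and the interval of Pdk4 is the widest.

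Of the 11 member probes, 10 were below 0 and 1 above, where 48.8% of all probes and 49.3% of the tested ones were below 0. With scaling to the 75th percentile, 7 were below 0 and 4 above, the undetected probes of Ppard, Ppargc1a and Pparg (ILMN_1221893) having turned. The groups did not overlap for 4 probes, each lower in the knockout-labelled arrays: Esrra among the 2 tested, and Pdk4, Rxra and Ppargc1b among the 9 that were not. Among all probes outside the tested set, 2.31% were lower with no overlap, and among all probes 4.62%. In limma over all probes, 0 of the 11 passed and 6 had an unadjusted p under 0.05, each lower in the knockout-labelled arrays, as 7.19% of all probes were (14.0% in either direction), and 1.64% of all probes passed.

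The other genes of the pathway were read from 6 lists, 54 of whose 118 genes passed the detection filter. A gene was represented by its brightest tested probe, and 4 rose and 3 fell, where 3.12% of all tested probes rose and 4.01% fell. Counted by gene, with 1 probe each, 249 of 7041 genes rose and 358 fell. Of 23 PPAR target genes of fatty acid oxidation, 11 passed the filter, 2 rose and 1 fell, with a median change of -0.02 log2 beside 0.0028 log2 over all tested probes. Acot1, a cytosolic acyl-CoA thioesterase that PPAR alpha induces in liver, stood at 6.80, 6.85, 6.67 and 6.62 log2 in the knockout-labelled arrays, against 7.81, 7.56, 7.74 and 7.58 log2 in the control arrays. It fell by 0.94 log2 (SE 0.08, adjusted p = 0.000147 in limma) with a wide gap between the groups, and by 0.54 log2 with no background correction and 0.52 log2 in the authors' deposited log2 table, where it also passed. The peroxisomal thiolase Acaa1a rose by 0.32 log2 (adjusted p = 0.015). In limma Acaa1a passed whichever array was left out (adjusted p up to 0.0482), but not with the replicate number fitted as a block (0.0557). Acadvl, which starts the oxidation of very long-chain fatty acids, rose by 0.27 log2 (adjusted p = 0.044), and its call was lost whichever array was left out (up to 0.104), with no detection filter (0.0877) and with either looser one (0.0571 and 0.0622). Ehhadh, Cpt1a, Cpt1b and Fgf21, all PPAR alpha targets, did not pass the detection filter.

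Of 22 PPAR target genes of lipid uptake and storage, 6 passed the filter, 0 rose and 1 fell, with a median change of 0.02 log2. Fabp3, a fatty acid binding protein, stood at 5.38, 5.97, 5.41 and 5.50 log2 in the knockout-labelled arrays, against 6.82, 7.33, 7.09 and 6.73 log2 in the control arrays. It fell by 1.43 log2 (SE 0.16; limma adjusted p = 0.000773), which is not an exact change since it was detected on 1 of 4 knockout-labelled arrays and 4 of 4 control arrays. Its change was -0.60 log2 with no background correction, -0.84 log2 with normexp and an offset of 50 and -0.58 log2 in the authors' deposited log2 table, and it passed under each. Lpl, the lipase that Angptl4 inhibits, differed by 0.12 log2 (SE 0.08; adjusted p = 0.367), and the droplet protein Hilpda by 0.12 log2 (adjusted p = 0.429). Leaving out 1 array gave 0.08 log2 (without control array 4) to 0.19 log2 (without control array 1) for Lpl, and 0.07 log2 (without control array 2) to 0.19 log2 (without knockout-labelled array 1) for Hilpda, with 0.08 log2 without knockout-labelled array 2. The classical PPAR gamma targets Adipoq, Fabp4, Plin1, Cidec and Cd36 did not pass the filter.

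Receptor partners and coregulators showed no call. Of 21 genes, 9 passed the filter, 0 rose and 0 fell, and the changes ran between -0.11 and 0.18 log2. Nr2f1, an orphan nuclear receptor, differed by 0.14 log2 (adjusted p = 0.25), the RXR relative Rxrb by 0.11 log2 (0.379) and the transcriptional coregulator Cited2 by 0.18 log2 (0.475). Cited2 rested on single arrays, with 0.06 log2 without control array 2, 0.12 log2 without knockout-labelled array 1 and 0.30 log2 without control array 4. A second probe of Rxrb differed by -0.08 log2, so its probes disagreed in direction, and the mean of its probes differed by 0.02 log2. Rxrg did not pass the filter, which leaves Rxrb as the RXR gene that these arrays measured.

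Of 18 PGC-1 partners and genes of mitochondrial biogenesis, 13 passed the filter, 1 rose and 0 fell, with a median change of -0.03 log2. Tfb1m, a methyltransferase of mitochondrial ribosomal RNA, stood at 7.47, 6.97, 7.22 and 7.26 log2 in the knockout-labelled arrays, against 6.83, 6.84, 6.84 and 6.92 log2 in the control arrays. It rose by 0.37 log2 (SE 0.10, with 0.0434 as its adjusted p in limma), and the call was lost without 7 of the 8 arrays, all but knockout-labelled array 2 (adjusted p up to 0.102), with scaling to the 75th percentile, with no detection filter and with either looser one. With no background correction it rose by 0.21 log2 and passed (adjusted p = 0.025). The transcription factor Nrf1, a regulator of nuclear genes for mitochondrial proteins, differed by 0.19 log2 (adjusted p = 0.117), and cytochrome c (Cycs) by -0.23 log2 (0.179), or -0.13 log2 with no background correction. Esrrb and Esrrg, the relatives of Esrra, did not pass the filter.

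Of 16 enzymes and CREB-related factors that act on PGC-1, 8 passed the filter, 1 rose and 0 fell. Mapk14, the p38 alpha kinase that phosphorylates PGC-1 alpha, rose by 0.86 log2 (9.47 ± 0.05 log2 in the knockout-labelled arrays and 8.60 ± 0.13 log2 in the control arrays, SD, n = 4 each; limma adjusted p = 0.000153). The deacetylase Sirt1 differed by -0.21 log2 (adjusted p = 0.132, and 0.0467 without control array 4), or by -0.13 log2 with no background correction. Crtc3, a CREB coactivator, differed by 0.29 log2 (adjusted p = 0.276, and 0.0402 without knockout-labelled array 2) and was detected on 3 knockout-labelled arrays and 1 control array. Its difference was 0.45 log2 without knockout-labelled array 2 and 0.10 log2 with no background correction.

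Of 18 listed relatives of Pdk4, Ucp2 and Angptl4, 7 passed the filter, 0 rose and 1 fell, with a median change of 0.08 log2. Pdhb, a subunit of the pyruvate dehydrogenase complex on which Pdk4 acts, stood at 9.31, 9.17, 9.18 and 9.36 log2 in the knockout-labelled arrays, against 9.84, 9.67, 9.87 and 9.81 log2 in the control arrays. It fell by 0.54 log2 (SE 0.07, with 0.00254 as its adjusted p in limma), and its other tested probe fell by 0.52 log2 (adjusted p = 0.0126). The kinase Pdk3 differed by 0.32 log2 with no overlap between the groups (adjusted p = 0.0589) and passed under 7 alternatives, among them the authors' deposited log2 table. The phosphatase Pdp2, which reverses the action of the kinases, differed by 0.17 log2 (adjusted p = 0.12), and the uncoupling protein genes Ucp1 and Ucp3 did not pass the filter.

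**Figure D4:**
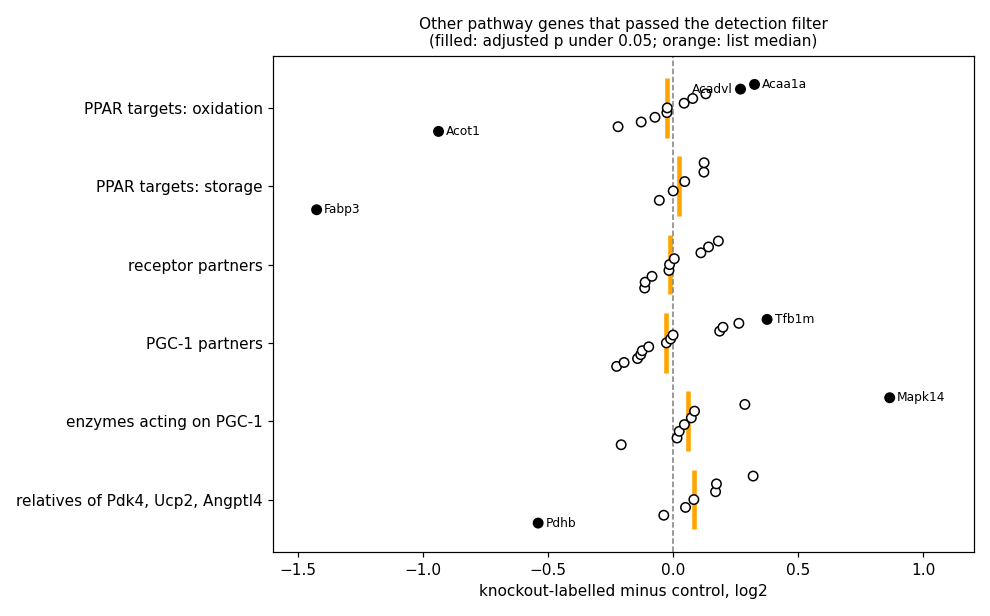
Change in log2 signal, knockout-labelled minus control (horizontal axis), of the 54 other pathway genes that passed the detection filter, one point per gene in 6 lists; filled points have an adjusted p under 0.05 and orange bars mark the list medians. The medians lie between -0.03 and 0.08 log2, and the 7 filled points are named.

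Markers of other cell types were read beside these values. Each summed signal took in every marker of the type that had a probe, detected or not. All 9 adipocyte markers with a probe, Adipoq, Plin1, Cidec, Lep, Retn, Fabp4, Lipe, Cebpa and Car3, were not detected on any array, and neither were the 7 endothelial markers. The summed adipocyte signal was 227 to 237 in the knockout-labelled arrays and 231 to 242 in the control arrays, and the endothelial sum was 195 to 209 in the knockout-labelled arrays and 186 to 197 in the control arrays. Of 7 macrophage markers, 4 passed the filter, all with differences below 0 and 0 past the threshold. The differences were -0.26 log2 for Adgre1, -0.21 log2 for Lyz2, -0.21 log2 for Aif1 and -0.12 log2 for Cd14 (limma adjusted p between 0.111 and 0.357). Further tested probes of Adgre1 (-0.31 and -0.28 log2), Lyz2 (-0.14 log2) and Aif1 (-0.15 log2) were lower too. None of them passed, and the smallest limma adjusted p was 0.064, for Adgre1. The summed signal of all 7 macrophage markers was 2463 to 2976 in the knockout-labelled arrays and 2865 to 3228 in the control arrays. Of these, Ptprc, Itgam and Fcgr1 were not detected. Of 7 muscle markers only Acta1 was detected, and it fell by 0.73 log2 (adjusted p = 0.0178); the muscle sum was 303 to 359 in the knockout-labelled arrays and 388 to 468 in the control arrays. Of 7 chondrocyte markers 3 passed the filter. Col2a1 rose by 0.45 log2 (limma adjusted p = 0.00974), while Sox9 differed by 0.20 log2 (0.373) and Comp by 0.12 log2 (0.676). Acan, Col10a1, Matn3 and Chad were not detected on any array. The chondrocyte sum was 1956 to 2090 in the knockout-labelled arrays and 1325 to 1675 in the control arrays. Col2a1 was by far the brightest of these markers, so this sum mostly repeats its signal. All 6 osteoblast markers that passed the filter had differences above 0, between 0.12 and 0.58 log2, and 0 passed the threshold. The largest was that of Ibsp, which was detected on 4 knockout-labelled arrays and 1 control array. The summed signal of the osteoblast markers was 10097 to 12093 in the knockout-labelled arrays and 8990 to 10357 in the control arrays. Col1a1 and Col1a2 were the brightest of them and weigh most in this sum. The part of these cell types in the changes of Esrra, Angptl4 and the other genes named was not tested.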

How the data were processed

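The data were 8 Illumina expression arrays, 4 knockout-labelled and 4 control. The submitters' processing notes name GenomeStudio (version not recorded). The authors deposited, per the file headers, a signal intensity and a detection p-value for each of 25697 probes; the intensities are linear, and the detection p-value column increases as signal does (lowest Spearman rho 0.979), so 1 minus it was used. A second table the authors deposited holds log2 values with 1 distribution on all arrays, taken as quantile-normalized and used as an alternative; its further processing is not stated. The platform annotation gave 1 symbol to 23978 probes, and 1719 had none; gene IDs matched GRCm38.p6 for 23962 and changed 0 symbols.

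From the intensities, neqc of limma 3.58.1 removed background and quantile-normalized in R 4.3.3 (offset 16, log2 scale, which understates changes of dim probes). The filter kept probes detected (p under 0.01) on 4 arrays or more, each tested on its own with lmFit and eBayes without covariates, with Benjamini-Hochberg adjustment over all probes tested and a threshold of 0.05. The steps were tested on simulated data. Probes outside the filter were described, and took a p only from fits with no filter or a looser one. The members and the pathway and marker lists were chosen with earlier results of these data known. Named are Lrp5, all members, the 3 genes of each pathway list with the smallest p and those past the threshold; other genes named for being detected or not were picked from the lists as examples after their values were seen. Alternatives covered background correction, normalization, filters, probe summary, array weights, the variance prior, the replicate number as a block and leaving out each array. The number of arrays limits the precision. No array repeated another (0 of 28 pairs identical).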

Additional observations from a re-analysis of the deposited data

Results flagged for a closer look

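In 60 groups of 4 arrays examined, 2 had 1 array far from the others, and chance alone sets apart about 1 group in 20. Tfb1m stood at 6.92 log2 in control array 4, against 6.83 to 6.84 log2 in the other control arrays. Crtc3 stood at 5.81 log2 in control array 1, the only control array on which it was detected, against 5.49 to 5.54 log2 in the others. Neither is a member, and no member probe had such an array.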

How the results depend on the processing

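All changes of Esrra and Angptl4 kept their direction under the 21 alternatives run, between -0.28 and -0.18 log2 for Esrra and between -0.39 and -0.23 log2 for Angptl4. Of the member probes, 0 passed as reported, 2 passed with no background correction, with the authors' log2 table and with a trended and robust prior, and 1 passed with normexp and an offset of 50; the cause was not tested. The 713 probes past the threshold became 1196, 1181 and 1213 with no background correction, the authors' table and the trended prior, and 421 with no detection filter, where more probes are tested. Leaving out 1 array gave between 326 and 813 probes, 0 member probes and between 5 and 7 list genes, the count of probes being more than 1.5 times smaller when the array left out was knockout-labelled 1 (431), 2 (360) or 3 (408), or control 1 (412), 2 (326) or 3 (356). The labels do not say whether same-numbered arrays were prepared together. Deviations of same-numbered arrays from their group means correlated between -0.03 and 0.08, and 2 of 8 arrays correlated best with their own number. In both groups, array 1 had the fewest detected probes (9685 knockout-labelled, 9844 control) and array 2 the most (10153 and 10363). These values do not settle whether the arrays are paired. With the replicate number as a block, 380 probes, 0 member probes and 4 of the 7 list genes passed; Acaa1a, Acadvl and Tfb1m did not. No named gene of the pathway lists reversed its direction; among the members, the undetected Ppard, Ppargc1a and Pparg (ILMN_1221893) did with scaling to the 75th percentile (0.09, 0.06 and 0.0008 log2). Signals near background limit what can be said of the 9 member probes outside the tested set, where a change in the transcript may not show.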
